A study of Mus musculus with 3 samples.

Results

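CXC chemokines are small secreted proteins that bind receptors on leukocytes and direct where these cells move. Their name refers to a pair of conserved cysteines separated by one other residue. Cxcl1 and Cxcl2 carry the motif that engages Cxcr2 and draw neutrophils into injured liver, whereas Cxcl9 and Cxcl10 bind Cxcr3 on T cells and NK cells and are classic targets of interferon signalling. Cxcl12 (Cxcr4 and Ackr3), Cxcl13 (Cxcr5) and the membrane-anchored Cxcl16 (Cxcr6) are mostly described as homeostatic ligands that retain or guide cells, and the receptor of Cxcl14 is less settled.

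The expression of 8 CXC chemokine ligands (Cxcl1, Cxcl2, Cxcl9, Cxcl10, Cxcl12, Cxcl13, Cxcl14 and Cxcl16) was followed in mouse liver subjected to ischemia and reperfusion. The members were taken by gene symbol, and all 8 were found among the 23361 genes listed for each sample. The series has 3 RNA-seq libraries of C57BL/6J mice labelled male and 8 to 10 weeks old. The sham sample came from mice with a laparotomy and no vessel clamping, sampled after 90 min. The WI (warm ischemia) sample came from mice whose left and median lobes, 70% of the liver, were clamped for 90 min. The IR (ischemia followed by reperfusion) sample came from mice with the same clamping followed by 120 min of reperfusion. All mice were fasted for 12 h before surgery. The comparison of WI with sham addresses the ischemia stage, and that of IR with WI the reperfusion stage.

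Each group is represented by 1 library. The study used 6 mice per group, and whether a library pooled several mice is not stated. No group was sampled at the IR time without clamping, so reperfusion cannot be told apart from the additional time after surgery. No difference below could be tested against the variation between mice, and no p-value is given.

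The libraries of sham and WI went against the label of male mice. Xist, the RNA that silences one X chromosome in female cells, had an FPKM of 18.9 in sham, 20.1 in WI and 1.29 in IR. The Y-linked gene Ddx3y had an FPKM of 0 in sham, 0.00849 in WI and 8.58 in IR, and Uty, Kdm5d and Eif2s3y were listed at 0 in sham and WI. In each comparison with IR, the sex of the mice and reperfusion therefore cannot be told apart, whereas sham and WI had the same pattern. Of 7 hepatocyte markers, 6 were abundant in every library, and Alb was listed at 0 in all 3 with a status saying that its locus held too many fragments to process.

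FPKM, the number of fragments scaled to transcript length and to the mapped reads of the library, is a level that can be compared between genes. The authors' files give each FPKM with a lower and an upper 95% bound from the count model of Cuffdiff. These bounds do not cover the spread between mice. The numbers of reads behind each value are not in the tables, so the width of the bounds is the only measure of precision. The median distance from the FPKM to its bound was 51.9% to 52.0% of the FPKM over all genes compared. For the 8 ligands it was 62.6% in sham, 58.3% in WI and 51.3% in IR, so their levels were about as precise as those of other genes in IR and less precise in sham.

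Of the 8 ligands, 5 lie on chromosome 5 (mm10). Cxcl1 (chr5:90891245-90893115) and Cxcl2 (chr5:90903899-90905938) are separated by 10783 bases. Cxcl9 (chr5:92321331-92328079) and Cxcl10 (RefSeq chr5:92346638-92348889) lie next to Art3 and Cxcl11 in a separate group, and Cxcl13 lies at chr5:95956939-95961068. Cxcl12 (chr6:117168535-117181368), Cxcl14 (chr13:56288643-56296551) and Cxcl16 (RefSeq chr11:70454389-70459984) are on other chromosomes. In the authors' tables, Cxcl10 was quantified in a locus shared with Art3 and Cxcl11, and Cxcl16 in a locus shared with Zmynd15, so their FPKM depends on how reads were divided between overlapping genes. Whether strand was used for counting is not stated.

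Promoters are shown for Cxcl1, Cxcl2, Cxcl3 and Cxcl10, the ligands at least 2-fold higher in IR than in sham. Because they were picked by their levels, they cannot relate a promoter match to a level. The sequences are from RefSeq (GRCm38.p6, whose coordinates equal those of mm10) and read 5′ to 3′ on the gene's strand. The windows of Cxcl1, Cxcl2 and Cxcl3 end on the base before the annotated start. Capitals mark matches to the kappaB consensus, the letters bound by NF-kB, and in Cxcl10 also the core of the interferon-stimulated response element (ISRE). The promoters of Cxcl9, Cxcl12, Cxcl13 and Cxcl14, which are not shown, had no match to the kappaB consensus. The lack of a match to this 1 pattern does not show that a site is absent.
Cxcl1, chr5:90891125-90891244, plus strand: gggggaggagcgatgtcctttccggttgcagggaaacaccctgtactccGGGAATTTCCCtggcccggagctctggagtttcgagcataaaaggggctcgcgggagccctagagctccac
Cxcl2, chr5:90903779-90903898, plus strand: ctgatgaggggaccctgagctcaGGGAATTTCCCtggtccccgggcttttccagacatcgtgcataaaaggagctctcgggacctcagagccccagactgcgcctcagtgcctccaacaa
Cxcl3, chr5:90785981-90786100, plus strand: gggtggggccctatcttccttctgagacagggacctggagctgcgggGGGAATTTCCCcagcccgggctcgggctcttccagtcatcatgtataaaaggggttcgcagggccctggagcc
Cxcl10, chr5:92348970-92349109, minus strand: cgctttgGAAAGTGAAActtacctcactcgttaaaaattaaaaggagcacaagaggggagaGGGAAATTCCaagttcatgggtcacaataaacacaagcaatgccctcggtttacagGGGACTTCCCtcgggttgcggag

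Cxcl1, Cxcl2 and Cxcl3 carried the same capital letters, an inverted repeat that matches the consensus on both strands with an offset of 1 base. The match on the gene's strand spanned positions -71 to -62 of Cxcl1, -97 to -88 of Cxcl2 and -73 to -64 of Cxcl3, counted back from the start. Cxcl10 had separate matches at -159 to -150 and at -103 to -94, and its ISRE core lay at -213 to -204.

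Promoters of 7 of the 8 ligands were searched on both strands, from 250 bases before to 50 after the start. Cxcl16 had no entry in the table. The kappaB consensus was found in 3 of the 7 (Cxcl1, Cxcl2 and Cxcl10) and in 4.51% of all 32851 promoters. The ISRE core (GAAANNGAAA) was found in Cxcl10 and Cxcl14 and in 3.44% of all promoters. The GAS element (TTCNNNGAA), an interferon gamma response motif, was found in Cxcl14 and in 8.30% of all. The AP-1 motif (TGANTCA) was found in Cxcl9 and Cxcl10 and in 7.81% of all, and TATAAA in Cxcl9 and Cxcl13 and in 13.6% of all. The longest run shared by Cxcl1 and Cxcl2 upstream of the start, GGGAATTTCCCTGG, contains the kappaB match and occurred in 2 of all promoters. The 10-base match GGGAATTTCC occurred in 29, including those of Cxcl1, Cxcl2 and Cxcl3. A match describes letters in a window and not the binding of a factor.

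Differences between samples were taken on the log2(FPKM + 1) scale over the 10792 genes whose FPKM reached 1 in 1 or more libraries, which are called the genes compared here. A gene was counted as higher or lower when FPKM + 1 differed at least 2-fold. A stricter count took genes whose 95% bounds did not overlap. All 8 ligands were among the genes compared. Of these, 6 had an FPKM of at least 1 in all 3 samples, whereas Cxcl2 and Cxcl14 passed only through IR, where they were highest. The plot of levels by sample shows all 8 ligands with their bounds.

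**Figure D1:**
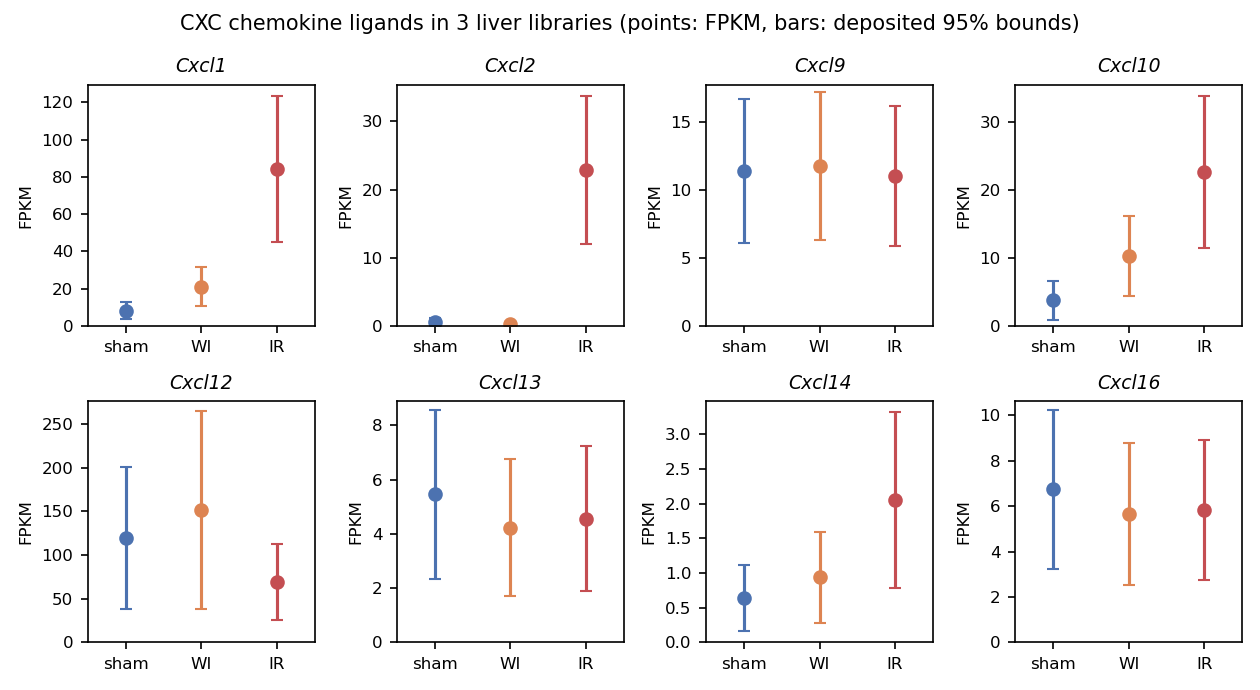
FPKM of the 8 CXC ligands (y axis, linear, from 0, one scale per panel) in the sham, WI and IR libraries (x axis). Points are the deposited FPKM and bars the deposited 95% bounds, with 1 library per group. Cxcl1 and Cxcl10 were lowest in sham and highest in IR, Cxcl2 was above an FPKM of 1 in IR alone, and the bounds of Cxcl9, Cxcl13 and Cxcl16 overlapped widely.

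Among the Cxcr2 ligands, Cxcl1 was higher at each stage. Cxcl1, a ligand produced by hepatocytes, endothelium and macrophages under inflammatory signals, had an FPKM of 8.13 in sham (bounds 3.54 to 12.7), 21.1 in WI (10.7 to 31.4) and 84.3 in IR (45.0 to 124). The IR level lay above the bounds of both other samples, while the bounds of sham and WI overlapped. With FPKM rescaled to a common sum, the bounds of IR and WI overlapped too. The FPKM ratio was 2.59 for WI over sham, with an interval of 1.23 to 5.47 carried over from the bounds. It was 4.002 for IR over WI (2.04 to 7.87) and 10.4 for IR over sham (4.99 to 21.6). On the log2(FPKM + 1) scale the differences were 1.27, 1.95 and 3.22, and 43, 186 and 52 of the 10792 genes compared had larger ones. Of the difference between sham and IR, 39.5% on that scale was already present between sham and WI.

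Cxcl2, the other main neutrophil attractant of the mouse, was high in IR alone. Its FPKM was 0.591 in sham (bounds 0.0936 to 1.09), 0.308 in WI (0.00944 to 0.607) and 22.8 in IR (11.98 to 33.7). The bounds of sham and WI overlapped and both lay below those of IR. The IR level was 74.2 times that of WI (interval 25.2 to 218) and 38.6 times that of sham (14.7 to 102). The distance from FPKM to bound was 96.9% of the FPKM in WI and 84.2% in sham. With lower bounds so near 0, these intervals are rough, mainly at their upper ends. The WI level was 0.521 times that of sham, with an interval of 0.144 to 1.88 that includes 1. On the log2(FPKM + 1) scale the difference of IR and WI was 4.19, and 26 genes compared had a larger one.

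Cxcl1 and Cxcl2 are neighbours, and their levels were set against each other. Within each library, a ratio of FPKM between genes does not depend on how libraries were scaled. The ratio of Cxcl1 to Cxcl2 was 13.7 in sham (interval 4.99 to 37.9), 68.4 in WI (23.1 to 203) and 3.69 in IR (1.90 to 7.18). The intervals of WI and IR did not overlap, while that of sham overlapped with both. Mthfd2l, 25257 bases beyond Cxcl2, had an FPKM of 0.383, 0.438 and 0.411 in sham, WI and IR.

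Of the Cxcr3 ligands, Cxcl10 was higher at each stage and Cxcl9 was nearly level. Cxcl10, an interferon-induced ligand also made by hepatocytes, had an FPKM of 3.76 in sham (bounds 0.893 to 6.62), 10.4 in WI (4.48 to 16.3) and 22.6 in IR (11.4 to 33.9). Only the bounds of sham and IR were apart. The FPKM ratio was 2.76 for WI over sham (interval 1.07 to 7.13), 2.19 for IR over WI (1.03 to 4.65) and 6.03 for IR over sham (2.43 to 15.0). On the log2(FPKM + 1) scale the differences were 1.26, 1.06 and 2.31, and 54.3% of the difference between sham and IR was present between sham and WI. The 2-fold call of Cxcl10 between IR and WI did not hold when FPKM was rescaled to a common sum in each library, which gave a difference of 0.54, or to a common sum without the 10 highest genes of each library, which gave 0.74. The overlapping Art3 had an FPKM of 1.73, 1.31 and 0.988 in sham, WI and IR, in the opposite order.

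Cxcl9, a ligand induced mainly by interferon gamma, had an FPKM of 11.4 in sham (bounds 6.11 to 16.7), 11.7 in WI (6.29 to 17.2) and 11.0 in IR (5.90 to 16.2). All 3 bounds overlapped over most of their length. The FPKM ratio of IR over sham was 0.967, and its interval of 0.501 to 1.87 leaves room for a change of less than 2-fold in either direction. The ratio of Cxcl10 to Cxcl9 within a library was 0.330 in sham (interval 0.135 to 0.805), 0.882 in WI (0.424 to 1.84) and 2.05 in IR (1.04 to 4.06). The intervals of sham and IR did not overlap, so Cxcl9 was the more abundant of this pair in sham and Cxcl10 in IR.

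Cxcl12 was the most abundant member in sham and WI. This ligand of Cxcr4, made by stromal, sinusoidal endothelial and other non-parenchymal liver cells, had an FPKM of 119 in sham (bounds 37.7 to 201), 151 in WI (38.5 to 264) and 69.3 in IR (25.8 to 113). All 3 bounds overlapped. The IR level was 0.458 times that of WI (interval 0.173 to 1.21) and 0.582 times that of sham (0.230 to 1.47), and both intervals include 1. On the log2(FPKM + 1) scale Cxcl12 was lower in IR than in WI by 2-fold or more, with a difference of -1.12, and 101 genes compared had a lower value. Between IR and sham the difference was -0.77, which became -1.35 with FPKM rescaled to a common sum and -1.14 without the 10 highest genes.

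The remaining ligands differed less. Cxcl13, the attractant of B cells through Cxcr5, had an FPKM of 5.45 in sham, 4.22 in WI and 4.56 in IR. Cxcl16, which is shed from the membrane by ADAM proteases, had an FPKM of 6.74 in sham, 5.66 in WI and 5.82 in IR. For both ligands the bounds of all samples overlapped. On the log2(FPKM + 1) scale the difference of WI and sham was -0.30 for Cxcl13 and -0.22 for Cxcl16. That of IR and WI was 0.09 and 0.03, and its sign turned with FPKM rescaled to a common sum (-0.35 and -0.43) or to a common sum without the 10 highest genes (-0.18 and -0.25).

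Cxcl14 was the lowest member in IR, with an FPKM of 0.640 in sham (bounds 0.164 to 1.12), 0.940 in WI (0.285 to 1.59) and 2.05 in IR (0.786 to 3.32). The bounds of all 3 samples overlapped. The FPKM ratio of IR over sham was 3.21 (interval 1.22 to 8.44), yet the difference on the log2(FPKM + 1) scale was 0.90, below 2-fold. Adding 1 to a level this low shrinks the ratio. With 0.1 added instead, Cxcl14 passed 2-fold in IR against WI (1.05) and against sham (1.54).

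**Figure D2:**
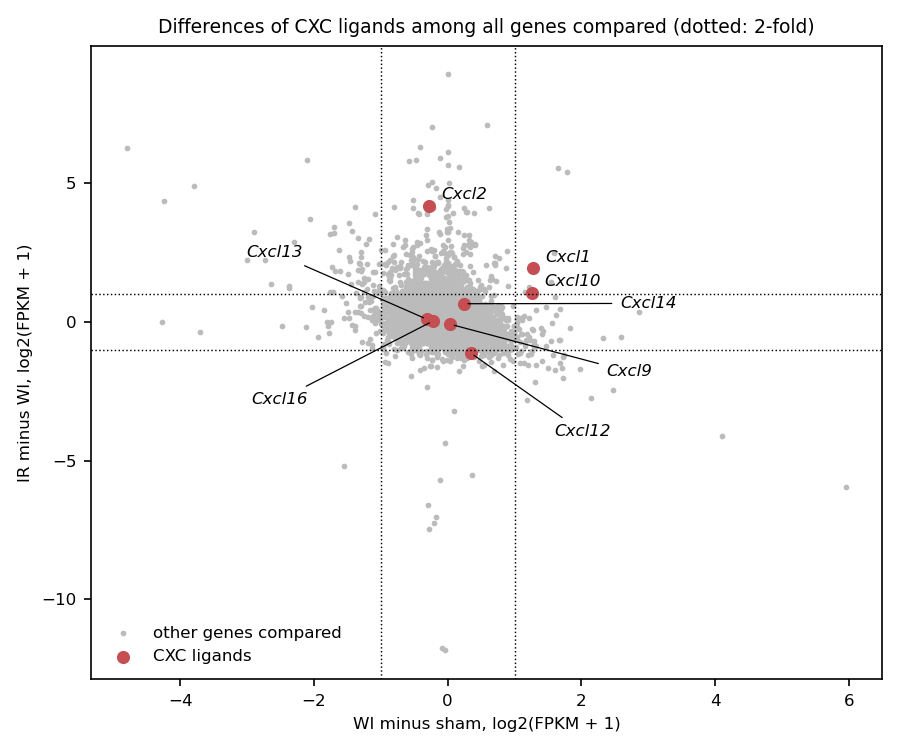
Difference of WI minus sham (x axis) and IR minus WI (y axis) in log2(FPKM + 1) for the 10792 genes compared. Red points are the 8 CXC ligands, grey points the other genes, and dotted lines mark 2-fold. Cxcl1 and Cxcl10 lie past 2-fold on both axes, Cxcl2 at 4.19 on the y axis alone, and Cxcl12 at -1.12 on the y axis.

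Counted over the 8 ligands, WI against sham had 2 members at least 2-fold higher (Cxcl1 and Cxcl10), where 0.751% of all genes compared were called higher. It had 0 members lower, beside 1.10% of all genes. By bounds that did not overlap, 0 members were higher and 0 lower, beside 0.195% and 0.482% of all genes. The median difference was 0.14 over the members and 0.02 over all genes compared.

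IR against WI had 3 members at least 2-fold higher (Cxcl1, Cxcl2 and Cxcl10), beside 5.78% of all genes, and 1 lower (Cxcl12), beside 1.43%. Cxcl2 was among the genes compared through its level in IR alone. Requiring an FPKM of at least 1 in all samples left 2 members higher (Cxcl1 and Cxcl10), beside 4.74% of all genes. By bounds, 2 members were higher (Cxcl1 and Cxcl2), beside 3.20% of all genes, and 0 were lower, beside 0.380%. The median difference was 0.37 over the members and 0.03 over all genes compared. With a common sum these medians were -0.01 and -0.41.

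IR against sham had 3 members at least 2-fold higher (Cxcl1, Cxcl2 and Cxcl10), beside 5.35% of all genes, and 0 lower, beside 2.15%. By bounds, the same 3 were higher, beside 2.68% of all genes, and 0 were lower, beside 1.10%. Here too Cxcl2 was among the genes compared through its level in IR alone. The median difference was 0.43 over the members and 0.05 over all genes compared, and with a common sum -0.00054 and -0.42. The other 4 members (Cxcl9, Cxcl13, Cxcl14 and Cxcl16) passed 2-fold in none of the comparisons, which share samples with each other.

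These counts depend in part on how the libraries are scaled. The FPKM of all genes summed to 475754 in sham, 487912 in WI and 712423 in IR, and the 10 highest genes held 14.9%, 14.8% and 20.8% of it. Rescaling to a common sum moved the median difference of all genes to -0.41 for IR against WI and -0.42 for IR against sham. The genes called in IR against WI were 624 higher and 154 lower as deposited, or 80.2% higher. They were 322 and 833 with a common sum, or 27.9% higher, and 411 and 415 with a common sum without the 10 highest genes, or 49.8% higher. In IR against sham the calls were 577 higher and 232 lower (71.3% higher) as deposited, 269 and 1110 (19.5%) with a common sum, and 349 and 617 (36.1%) without the 10 highest genes.

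Rescaling multiplies every gene of a library by the same factor. Distances from the median of all genes therefore move little by construction, and they do not test the effect of scaling. In IR against WI, Cxcl1 lay 1.92 above that median as deposited and 1.83 above it with a common sum. Cxcl2 lay 4.16 above it as deposited and 4.22 with a common sum, and Cxcl10 1.03 and 0.96. Cxcl12 lay below the median of all genes, at -1.14 as deposited and -1.24 with a common sum. Scaling by the median ratio of genes used factors of 1.0039 in sham, 1.0014 in WI and 0.99748 in IR. All 8 differences therefore stayed close to those as deposited, as the plot of differences under each scaling shows.

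**Figure D3:**
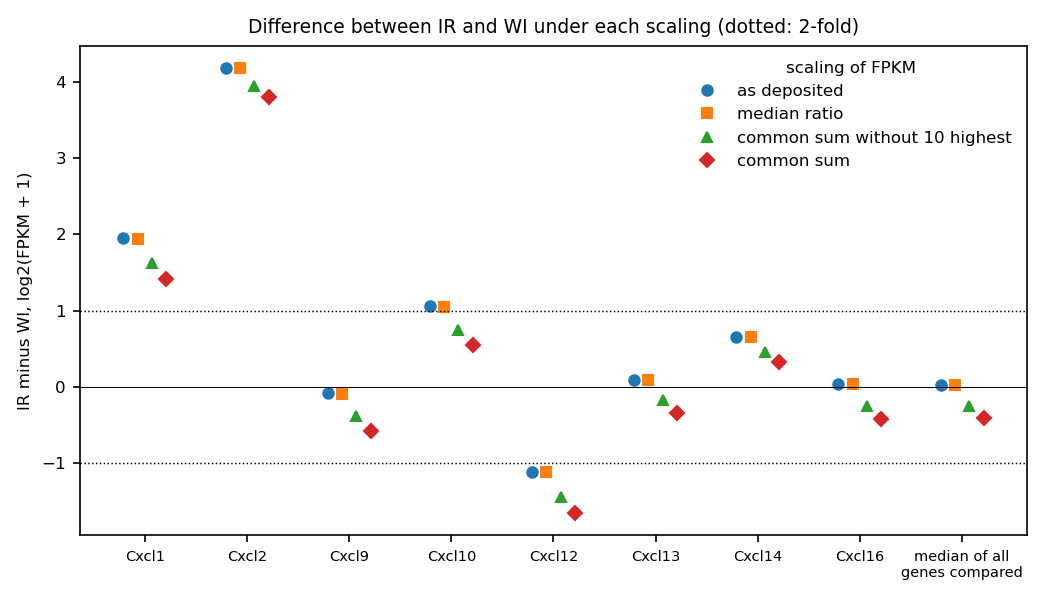
Difference of IR minus WI in log2(FPKM + 1) (y axis) for each CXC ligand and for the median of all genes compared (x axis), with FPKM as deposited and under 3 other scalings (marker shapes). Dotted lines mark 2-fold. Cxcl1 and Cxcl2 stay above 2-fold under all 4 scalings, Cxcl12 stays below -1, and Cxcl10 lies between 0 and 1 under both common-sum scalings.

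The order of the ligands by level differed between IR and the other samples. In sham the order was Cxcl12, Cxcl9, Cxcl1, Cxcl16, Cxcl13, Cxcl10, Cxcl14 and Cxcl2, and only the bounds of Cxcl12 and Cxcl9 were apart among neighbours. In WI it was Cxcl12, Cxcl1, Cxcl9, Cxcl10, Cxcl16, Cxcl13, Cxcl14 and Cxcl2, with bounds apart between Cxcl12 and Cxcl1 and between Cxcl13 and Cxcl14. In IR it was Cxcl1, Cxcl12, Cxcl2, Cxcl10, Cxcl9, Cxcl16, Cxcl13 and Cxcl14, and the bounds of all neighbours overlapped. Among all genes, 4512 had a higher FPKM than Cxcl1 in sham, 2373 in WI and 931 in IR. For Cxcl2 these numbers were 11202, 12014 and 2424, and for Cxcl12 they were 598, 517 and 1069.

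The summed FPKM of the 8 ligands was 156 in sham, 206 in WI and 223 in IR. Cxcl1 and Cxcl2 together made up 5.59% of it in sham, 10.4% in WI and 48.1% in IR. Cxcl12 made up 76.5%, 73.6% and 31.1%, and Cxcl9 and Cxcl10 together 9.73%, 10.8% and 15.1%. As deposited, the sum differed less between WI and IR than its makeup. Cxcl12 held the largest share in sham and WI, and the Cxcr2 ligands the largest share in IR. The shares do not depend on how libraries were scaled, but the sum does. With FPKM rescaled to a common sum (factors of 1.15 in WI and 0.784 in IR), the ligands summed to less in IR than in WI. The ratio of Cxcl1 to Cxcl12 was 0.0682 in sham (interval 0.0281 to 0.166), 0.139 in WI (0.0571 to 0.340) and 1.22 in IR (0.557 to 2.66).

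**Figure D4:**
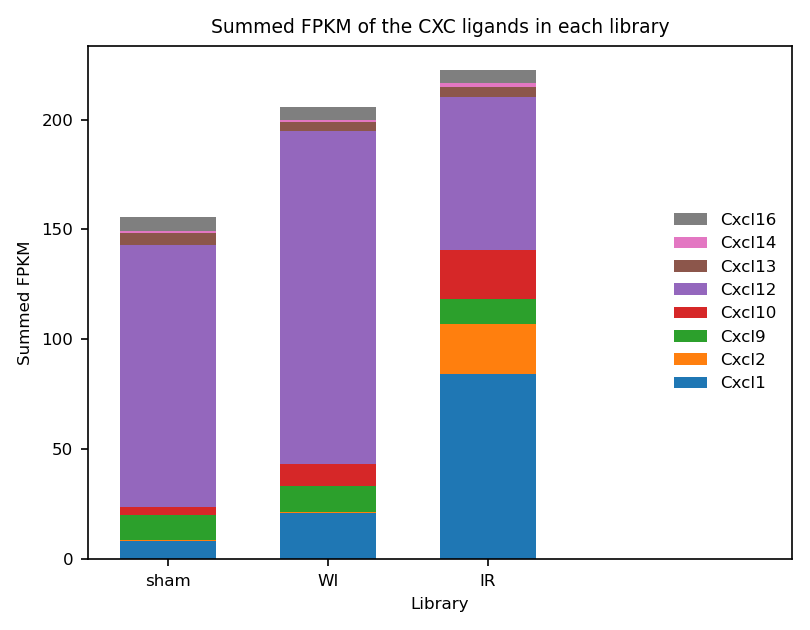
Summed FPKM, as deposited, of the 8 CXC ligands (y axis, linear, from 0) in the sham, WI and IR libraries (x axis), with each ligand as a coloured section and no error bars. Cxcl12 fills 76.5% of the bar in sham and 31.1% in IR, while Cxcl1 and Cxcl2 together fill 5.59% and 48.1%.

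A list of the other 7 CXC ligands of the mouse had 3 among the genes compared. Of these, 1 was at least 2-fold higher in IR than in WI and sham (Cxcl3) and 0 lower. Over all genes compared, 5.78% were higher and 1.43% lower against WI, and 5.35% and 2.15% against sham. Cxcl3, a further Cxcr2 ligand of chromosome 5, passed the minimum FPKM through IR alone and was listed at 0 in sham and WI and at 1.83 in IR (bounds 0.547 to 3.12), so no fold is given. Pf4 and Ppbp, platelet-derived ligands, had FPKM of 1.05, 1.24 and 2.92 and of 0.855, 0.496 and 1.12 in sham, WI and IR, with overlapping bounds. Cxcl5, a Cxcr2 ligand of epithelium, was listed at 0, 0.119 and 0.281. Cxcl11, the further Cxcr3 ligand, had FPKM of 0.268, 0.347 and 0.534 with lower bounds of 0 in each sample. Cxcl15 was listed at 0 throughout, and Cxcl17 at 0, 0 and 0.0693.

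Of 8 CXC receptors, 4 were among the genes compared, and 1 was at least 2-fold higher in IR than in WI and sham (Cxcr2) with 0 lower. Over all genes compared, 5.78% were higher and 1.43% lower against WI, and 5.35% and 2.15% against sham. Cxcr2, the neutrophil receptor of Cxcl1 and Cxcl2, had an FPKM of 0.127 in sham (bounds 0.0125 to 0.241), 0.163 in WI (0.0228 to 0.303) and 3.65 in IR (1.77 to 5.53). It passed the minimum FPKM through IR alone. Its bounds in IR lay above those of both other samples, and the FPKM ratio of IR over WI was 22.4 (interval 8.24 to 61.2). Cxcr1, its relative, stayed low at 0.0849, 0 and 0.313.

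The receptors of the other ligands had overlapping bounds in all samples. Cxcr3, which binds Cxcl9 and Cxcl10, had an FPKM of 0.639 in sham, 0.544 in WI and 0.315 in IR. Cxcr4, which binds Cxcl12, had 1.67, 0.734 and 1.91, and the scavenging receptor of Cxcl12, Ackr3, had 0.428, 0.597 and 0.997. Cxcr5 had 0.154, 0.189 and 0.106. Cxcr6 had 0.871, 1.08 and 0.267 with lower bounds of 0, in a locus shared with Fyco1. Ackr1, a decoy receptor that binds several CXC ligands, had 0.644, 1.09 and 2.25.

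**Figure D5:**
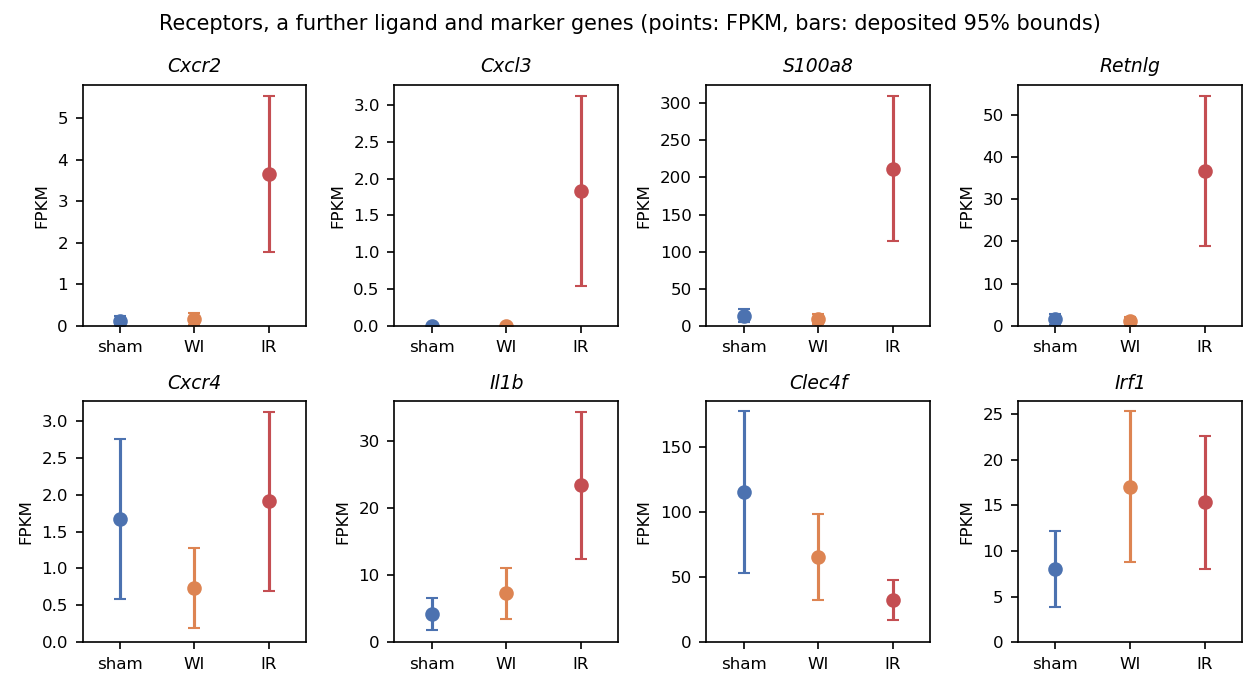
FPKM (y axis, linear, from 0, one scale per panel) of Cxcr2, Cxcl3, S100a8, Retnlg, Cxcr4, Il1b, Clec4f and Irf1 in the sham, WI and IR libraries (x axis). Points are the deposited FPKM and bars the deposited 95% bounds. Cxcr2, Cxcl3, S100a8 and Retnlg are highest in IR, with bounds above those of sham and WI. Their levels in IR are unlike, from 1.83 for Cxcl3 to 212 for S100a8. Clec4f is highest in sham, and the bounds of Irf1 overlap in all samples.

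Regulators known for each ligand group were counted from lists of general knowledge. Of 19 genes of NF-kB signalling and of the cytokines that induce Cxcl1 and Cxcl2, 15 were among the genes compared. WI against sham had 0 higher and 1 lower, IR against WI 8 higher and 0 lower, and IR against sham 9 higher and 0 lower. Over all genes compared, 0.751% were higher and 1.10% lower in WI against sham. These shares were 5.78% and 1.43% in IR against WI, and 5.35% and 2.15% in IR against sham. The medians of the 15 genes were -0.01, 1.04 and 1.03 on the log2(FPKM + 1) scale. With FPKM rescaled to a common sum, the genes higher in IR were 3 against WI (Il1b, Myd88 and Il1r1) and 2 against sham (Il1b and Il1r1), beside 2.94% and 2.46% of all genes, and none was lower. Il1b, the cytokine interleukin-1 beta, had an FPKM of 4.24 in sham, 7.29 in WI and 23.4 in IR, and Il1r1, its receptor, had 17.9, 6.05 and 67.8. Myd88, the adaptor of that receptor, had 7.48, 6.40 and 22.8, and Relb, an NF-kB subunit, 1.17, 1.56 and 4.71. Tnf was listed at 0, 0.0851 and 0.808, and Il17a at 0 in all samples.

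Of 15 genes of interferon signalling upstream of Cxcl9 and Cxcl10, 13 were among the genes compared, and at 2-fold 0 were higher and 0 lower in each comparison. With 0.751% to 5.78% of all genes higher and 1.10% to 2.15% lower, counts of 0 are near the background for a list of this size. The medians were 0.06, -0.0041 and 0.25 for WI against sham, IR against WI and IR against sham. The last of them became -0.26 with a common sum. There 2 genes (Ifngr1 and Irf7) were lower in IR than in sham, beside 10.1% of all genes. Irf1, a transcription factor induced by interferon gamma, had an FPKM of 8.06 in sham (bounds 3.91 to 12.2), 17.0 in WI (8.76 to 25.3) and 15.3 in IR (8.07 to 22.6), with overlapping bounds. The FPKM of Irf1 in WI was more than 2-fold that in sham, but adding 1 brought the difference just below 2-fold. Ifng had an FPKM of 0.0362, 0.0987 and 0.135, and Ifnb1 was listed at 0 in all samples.

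Of 7 factors that control the decay or stability of chemokine mRNA, all were among the genes compared. In IR, 1 was higher than in WI and sham and 0 lower, beside 5.78% and 5.35% of all genes higher. It was Zc3h12a (Regnase-1), a ribonuclease that degrades inflammatory mRNAs, with an FPKM of 1.18, 1.03 and 3.95 in sham, WI and IR. With a common sum it passed 2-fold in neither comparison. Of 10 enzymes that cleave or modify CXC ligands, 5 were compared. In IR, 1 was higher than in WI and sham and 0 lower, beside the same shares of all genes. It was Mmp8, the collagenase of neutrophils, with an FPKM of 0.139, 0.0573 and 8.59, which passed the minimum through IR alone. Dpp4, the protease that truncates Cxcl10 and Cxcl12, had 30.3, 30.3 and 18.6. With a common sum it was at least 2-fold lower in IR, beside 7.62% of all genes against WI and 10.1% against sham.

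Markers of liver and blood cell types were set beside the ligands. In bulk liver, fewer cells of a type and less RNA per cell cannot be told apart. Of 10 neutrophil markers 9 were listed and 5 compared. All 5 were at least 2-fold higher in IR than in WI and sham, with bounds apart, as Cxcl2 was. Over all genes compared, 5.78% were at least 2-fold higher against WI and 5.35% against sham. By bounds these shares were 3.20% and 2.68%. Ngp was among the 5 through its level in IR alone, and the 4 listed markers that were not compared (Mpo, Elane, Camp and Ltf) stayed below 1 in every library. With a common sum 4 of the 5 were higher than in WI and 3 than in sham, beside 2.94% and 2.46% of all genes. Their list summed to an FPKM of 25.9 in sham, 19.4 in WI and 459 in IR. S100a8 had an FPKM of 13.6, 9.17 and 212, and Retnlg 1.53, 1.18 and 36.6. Mpo, a marker of early granules, was listed at 0 in IR and Elane at 0 in WI. The part of neutrophil RNA in the levels of Cxcl2, Cxcl3 and Cxcr2 was not tested.

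The 8 Kupffer cell markers, all compared, summed to an FPKM of 497 in sham, 254 in WI and 165 in IR. At least 2-fold lower were 2 of them in WI against sham, 2 in IR against WI and 6 in IR against sham, with 0 higher, beside 1.10%, 1.43% and 2.15% of all genes lower. With a common sum the number in IR against WI was 6, beside 7.62% of all genes. Clec4f had an FPKM of 115, 65.3 and 32.7, whereas Marco (20.9, 12.6 and 25.3) and Cd68 (18.5, 12.3 and 18.5) had higher values in IR than in WI. Markers of sinusoidal endothelium summed to 160, 121 and 120 and those of stellate cells to 244, 169 and 172, beside 119, 151 and 69.3 for Cxcl12. Lyve1 alone had 11.2, 2.73 and 33.4 in sham, WI and IR, and the other 6 endothelial markers summed to 149, 118 and 86.8. B cell markers summed to 4.69, 2.59 and 1.87, and T and NK cell markers to 7.77, 7.67 and 3.87. Cholangiocyte markers summed to 2.48, 3.29 and 6.92 and platelet markers, which include Pf4 and Ppbp, to 2.92, 2.57 and 5.46. The part of any of these cells in the ligand levels was not tested.

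For each ligand, the genes with the most similar pattern were those with the smallest distance in the pair of differences (WI minus sham and IR minus WI, log2), over 3 samples. For Cxcl2 they were Niacr1, Retnlg and Atf3, at distances of 0.0902, 0.102 and 0.261. These distances depend on the 1 added to each FPKM. Without it, the difference of IR and WI for Cxcl2 was 6.21 in place of 4.19. Cxcl2 was also among the genes compared through its level in IR alone. Niacr1 had an FPKM of 0.711, 0.390 and 26.0, close to the levels of Cxcl2 itself, and Atf3, a stress-induced transcription factor, had 8.72, 5.76 and 114. For Cxcl1 they were Krt18, Tgm1 and Nr1d1, at 0.406, 0.575 and 0.583, and for Cxcl10 Osgin1, D4Wsu53e and Slc41a2, at 0.108, 0.220 and 0.381. For Cxcl12 they were BC023829, Gm14393 and Dlc1, at 0.00553, 0.0427 and 0.0686.

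The number of genes within a distance of 0.5 was 1 for Cxcl1, 5 for Cxcl10, 15 for Cxcl2 and 341 for Cxcl12. For Cxcl14 it was 2441, for Cxcl13 4881, for Cxcl16 5832 and for Cxcl9 6683. This number depends on how far a gene lies from 0 in both differences, and the distance of 0.5 is within the error that the bounds give for these differences.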

How the data were processed

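Liver mRNA of 1 sham, 1 WI and 1 IR library was analysed. The authors mapped reads to mm10 with TopHat2 2.0.9 and computed FPKM per gene with Cuffdiff of Cufflinks 2.0.2, and the deposited tables hold FPKM with 95% bounds and a status. The annotation used is not given in the sources used here. The files hold no counts, and no columns of other samples.

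Values were compared as log2(FPKM + 1) over genes whose FPKM reached 1 in 1 or more libraries, with calls at 2-fold or by bounds that did not overlap. Intervals of ratios were carried over from the bounds on the log scale (delta method), taking both values as independent, and cover the count model only. They are rough for genes whose lower bound lies near 0. With 1 library per group no test was made. Locus starts in the files count from 0 and were raised by 1: of 21429 genes matched to RefSeq, 10558 then had its start. Cxcr7, Darc and Il8 in the tables were matched to Ackr3, Ackr1 and Cxcl15 by RefSeq synonym. Cxcl15 was added in this way after the tables had been examined.

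The named genes were the members, the other CXC ligands and receptors, at most 4 genes past 2-fold per remaining list, the 3 nearest patterns per member, and neighbours on the chromosome. Values of Tnf, Il17a, Ifng, Ifnb1, Irf1, Dpp4, Mpo, Elane and Alb were added as defining genes of their lists after their values had been seen. The members and lists were chosen with earlier results of these data known. From the interferon list 1 gene is not reported here, and the list was counted without it. The scripts recovered known changes and motifs in simulated data. Alternatives were other pseudocounts, filters, scalings and fold thresholds. Python 3.11.15, pandas 2.3.3 and numpy 2.4.6 were used.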

Additional observations from a re-analysis of the deposited data

How the results depend on the processing

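No paired analysis was possible because each group has 1 library, and no library could be left out. Of 90 counts of members recomputed under 13 alternatives, 82 stayed within 1.5 times the reported count. Of 231 differences of single members, 0 changed sign after having been called. These totals overstate stability. Filters and the status setting cannot change a member's difference, and a count of 2 or 4 in place of 3 is within 1.5 times. With FPKM rescaled to a common sum, members with bounds apart in IR against WI were 1 (Cxcl2). Members called lower in IR against sham were 1 (Cxcl12) with a common sum, with a common sum without the 10 highest genes, and at 1.5-fold. Of all genes, 10.1%, 5.68% and 9.49% were lower under these settings, so 1 of 8 members is near the background. At 4-fold, members higher in WI against sham were 0, higher in IR against WI 1 (Cxcl2) and lower in IR against WI 0. The shares of all genes at 4-fold were 0.0649%, 1.62% and 0.176% in the same order. Without the members that share a locus, members higher in WI against sham were 1 (Cxcl1), beside 0.751% of all genes. This alternative was chosen after seeing the data, as were the bounds under other scalings. Cxcl10 lost its 2-fold call in IR against WI under both common-sum scalings, as did Cxcl2 by the filter of FPKM of at least 1 in all samples, which it did not pass. Cxcl14 gained one in IR against WI and sham with a pseudocount of 0.1, 0.01 or none.

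Counts over all genes moved too. With a pseudocount of 0.1 they were 135 higher and 247 lower in WI against sham, 854 and 385 in IR against WI and 803 and 626 in IR against sham. With 0.01 they were 163, 284, 890, 441, 834 and 671 in the same order, and with none 157, 278, 875, 434, 819 and 661. At 1.5-fold, WI against sham had 339 higher and 461 lower, IR against WI 1333 and 799, and IR against sham 1548 and 1024. At 4-fold these were 7 and 17, 175 and 19, and 141 and 25. The width of the bounds and the single library per group limit all of these values.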

Other observations

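Further genes beside the CXC ligands on their chromosomes were read from the same tables. Sdad1, beside Cxcl9, had an FPKM of 2.86 in sham, 2.58 in WI and 3.94 in IR, and Nup54, beyond the locus of Cxcl10, had 5.51, 5.45 and 7.38. Med11, 507 bases from the locus of Cxcl16, had 5.98, 6.52 and 7.59, and Cnot6l, the expressed neighbour of Cxcl13, had 6.995, 7.15 and 7.81. None of these 4 genes passed 2-fold in any comparison. The genes on either side of Cxcl12 and Cxcl14 had an FPKM of 0.0186 or less in every library. Lyve1, a marker of sinusoidal and lymphatic endothelium, had an FPKM of 11.2 in sham, 2.73 in WI and 33.4 in IR.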
